A study of Mus musculus with 12 samples.

Results

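The regions described here were the baseline open chromatin of cultured mouse cortical neurons, taken as positions at which all 3 vehicle-treated libraries had an accessibility peak. Peaks of the 3 libraries were merged where they shared at least 1 bp, and a merged region was kept when each of the 3 libraries contributed a peak. This left 97519 regions out of 197856 found in any vehicle library, against 263785 regions when the 12 libraries of the whole series were merged. Accessibility was read by ATAC-seq: Tn5, a transposase, inserts sequencing adapters where DNA is open. The study asked how alpha-synuclein pre-formed fibrils (PFF) change such neurons, with PBS as the vehicle and PFF alone, PFF+MLi-2 (an LRRK2 kinase inhibitor) and PFF+Rab5 ASO (antisense oligonucleotides) as the other groups, each of 3 biological replicates. The vehicle group used here received PBS for 7 days, with no fibrils, inhibitor or oligonucleotide. Its neurons were wild type, came from the cortex of E18 C57BL/6 embryos and were grown in a serum-free neuronal medium after plating. The labels name neither a cell sort nor a drug against dividing cells for these cultures, so cells other than neurons can be present, and they place the 3 libraries in batch 1.

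In a neuron most DNA is wound on nucleosomes and is hard to cut. Active and poised promoters lose nucleosomes just upstream of the transcription start, and enhancers do so at clusters of transcription factor sites, often far from the gene and specific to the cell type. CTCF, which anchors chromatin loops, keeps a further class of short accessible sites open. An accessible start site shows that factors can reach the DNA and is not a measure of transcription.

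Because the peaks are known by position only, the DNA under some of them is shown first. Each sequence is the 201 bp around the region's position (the median of the 3 library summits), read 5′ to 3′ on the forward strand of GRCm38, with matches to the motifs listed further below in capitals, where neighbouring matches can run together. The first set is 3 of the 15 strongest promoters of protein-coding genes, chosen because each holds the ETS motif CCGGAAG.
Scfd1 promoter, chr12:51377436-51377636: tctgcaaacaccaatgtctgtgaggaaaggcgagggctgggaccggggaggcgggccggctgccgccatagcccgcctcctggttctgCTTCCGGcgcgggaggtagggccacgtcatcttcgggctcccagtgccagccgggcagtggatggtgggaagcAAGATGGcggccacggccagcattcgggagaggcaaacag
Zfp960 promoter, chr17:17063878-17064078: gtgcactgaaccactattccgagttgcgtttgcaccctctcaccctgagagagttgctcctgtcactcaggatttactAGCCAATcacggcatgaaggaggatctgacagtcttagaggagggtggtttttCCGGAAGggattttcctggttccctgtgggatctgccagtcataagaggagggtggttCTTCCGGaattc
Tmem68 promoter, chr4:3574756-3574956: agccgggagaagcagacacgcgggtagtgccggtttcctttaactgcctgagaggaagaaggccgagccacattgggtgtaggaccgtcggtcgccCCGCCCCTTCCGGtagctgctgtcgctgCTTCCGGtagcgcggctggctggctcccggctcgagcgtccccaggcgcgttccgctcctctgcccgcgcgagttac
The second set is from the 15 strongest regions outside promoters: the intergenic region that leads them, one in an intron of Gpm6a and one in an intron of Zfp286 with a CTCF match.
Intergenic near 1810024B03Rik, chr2:127182860-127183060: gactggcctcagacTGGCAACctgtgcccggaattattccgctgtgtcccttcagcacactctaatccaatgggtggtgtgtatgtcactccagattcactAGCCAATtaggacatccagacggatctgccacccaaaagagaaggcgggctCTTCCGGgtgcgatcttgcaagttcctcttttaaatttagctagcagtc
Gpm6a intron, chr8:55034338-55034538: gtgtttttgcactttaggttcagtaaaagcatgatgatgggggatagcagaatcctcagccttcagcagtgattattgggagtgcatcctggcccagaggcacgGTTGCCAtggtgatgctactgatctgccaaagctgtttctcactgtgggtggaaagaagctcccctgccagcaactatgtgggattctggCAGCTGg
Zfp286 intron, chr11:62756907-62757107: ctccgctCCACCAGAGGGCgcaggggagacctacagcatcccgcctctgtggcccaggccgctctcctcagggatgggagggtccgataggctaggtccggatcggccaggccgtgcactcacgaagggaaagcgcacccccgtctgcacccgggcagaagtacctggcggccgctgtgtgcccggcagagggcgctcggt
The third set is the strongest region outside promoters within 50 kb of 3 activity-regulated genes, shown because each holds the cyclic AMP response element (CRE) TGACGTC on one strand or the other.
Upstream of Fos, chr12:85455296-85455496: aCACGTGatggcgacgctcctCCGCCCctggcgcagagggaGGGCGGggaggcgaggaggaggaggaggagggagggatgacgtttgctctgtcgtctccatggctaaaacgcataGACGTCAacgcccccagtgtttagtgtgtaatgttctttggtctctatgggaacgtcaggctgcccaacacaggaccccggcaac
Upstream of Npas4, chr19:5001831-5002031: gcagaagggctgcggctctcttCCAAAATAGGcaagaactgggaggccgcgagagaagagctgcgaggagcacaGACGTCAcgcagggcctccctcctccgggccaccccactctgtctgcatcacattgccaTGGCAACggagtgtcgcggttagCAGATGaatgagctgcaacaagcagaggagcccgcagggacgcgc
Upstream of Nr4a1, chr15:101246299-101246499: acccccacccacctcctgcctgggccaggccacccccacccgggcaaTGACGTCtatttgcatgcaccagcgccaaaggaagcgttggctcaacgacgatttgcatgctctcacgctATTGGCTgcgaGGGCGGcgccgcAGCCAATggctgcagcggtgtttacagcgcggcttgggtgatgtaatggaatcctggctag

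The 3 lists held 180989, 137417 and 152173 peaks in replicates 1, 2 and 3, with median widths of 134, 131 and 127 bp. Each peak has a fold enrichment over local background, and its percentile is the rank of that fold inside its own list, with 100 as the highest. Peaks inside the shared regions made up 59.9% of list 1, 82.3% of list 2 and 74.9% of list 3, so replicate 1, the longest list, had the largest share of peaks outside them. Sharing was near complete at high fold. At percentile 90 and over 99.97 to 100% of the peaks of each list lay in a shared region, against 24.6%, 57.9% and 46.4% between percentiles 10 and 20 and 28.7%, 59.7% and 49.6% below 10. The shared regions had a median width of 242 bp, against 123 bp for regions in 2 libraries and 72 bp for regions in 1, an order that the merging favours, since a shared region is the union of at least 3 peaks. Over the 97444 shared regions on chromosomes 1 to 19, X and Y, the percentiles of the libraries had Spearman correlations of 0.839 to 0.850, a description across regions, which are not independent replicates. The median SD of a region's percentile over the 3 libraries was 1.34 for the 14238 regions with a mean percentile of 90 or more and 13.8 for the 29091 under 50. Single positions in the lower range are therefore given with that spread in mind.

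Promoters, defined as positions within 1 kb of any annotated transcript start in GENCODE vM21, took 25290 regions or 26.0% of the total, although such positions make up 6.05% of the genome. This is 4.29 times their share of the bases. Introns held 38.0% of regions and 38.3% of the genome, and exons 3.26% against 3.18%, so both were close to their share of the sequence. Intergenic positions up to 50 kb from a gene held 27.1% of regions for 38.4% of the genome, and those farther away 5.61% for 14.0%. In the libraries' own lists the promoter share was 21.9%, 25.9% and 24.7%, a mean of 24.2% ± 2.03 (SD, n = 3). The intron share was 39.2% ± 1.08 and the intergenic share 33.4% ± 0.925 (SD, n = 3), so the difference between genome and peaks for promoters was far larger than the spread between libraries.

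**Figure D1:**
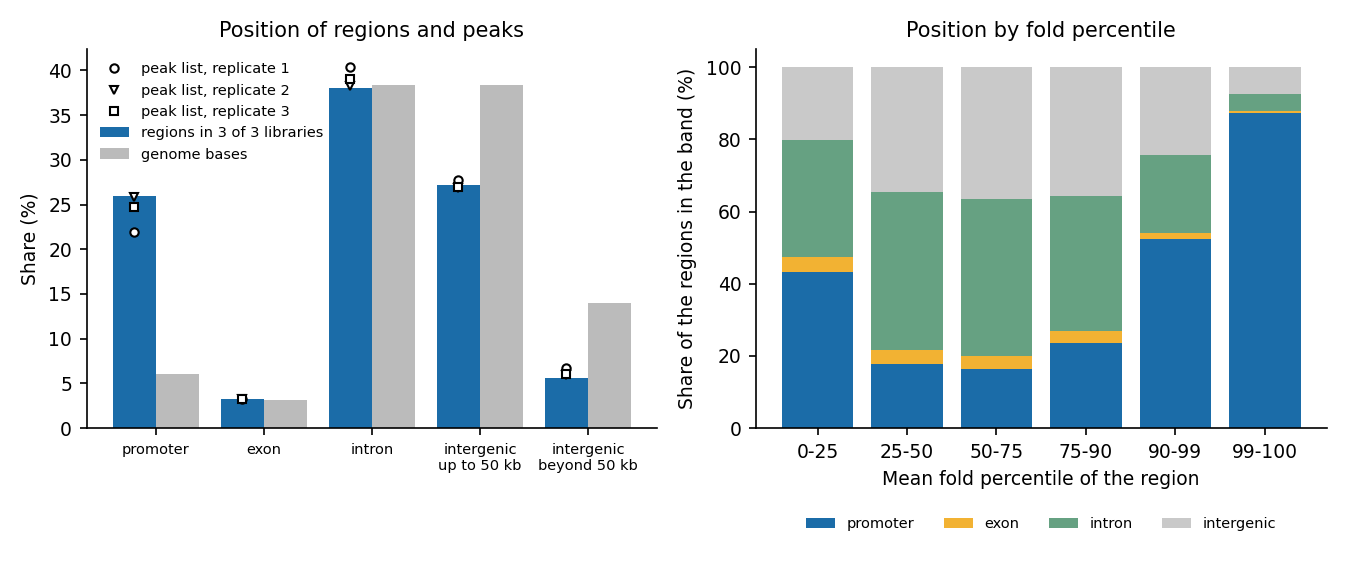
Left, share (%) of regions in 3 of 3 libraries (blue bars), of genome bases (grey bars) and of each library's own peaks (open symbols) by position; promoters hold 26.0% of regions and 6.05% of bases. Right, share (%) of each position class among regions grouped by mean fold percentile, in which promoters fall from 43.2% in the lowest band to 16.4% in the 50 to 75 band and reach 87.2% in the highest.

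Promoter regions had the higher folds in every library. Their median percentile was 78.3, 75.5 and 77.1 in replicates 1, 2 and 3, against 70.7, 60.7 and 64.3 for regions outside promoters. The difference was 7.59, 14.9 and 12.8 percentile points, a mean of 11.8 ± 3.75 (SD, n = 3), in the same direction in 3 of 3 libraries. Over all peaks of each library's own list, shared or not, the same difference was smaller, at 6.81, 8.52 and 5.76 points, a mean of 7.03 ± 1.40 (SD, n = 3). With 3 libraries an exact two-sided sign permutation test cannot give a p below 0.25, so no test was made. Among the other classes, intergenic regions up to 50 kb from a gene had median percentiles of 72.9, 62.0 and 66.2 in replicates 1 to 3, above introns at 69.2, 59.4 and 62.8 and exons at 68.1, 58.3 and 61.1 in each library.

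The position of a region depended on its percentile at both ends of the range, as the bars by fold percentile show. Of the 1246 regions at percentile 99 and over, 87.2% were promoters and 7.30% intergenic. Between percentiles 50 and 75 only 16.4% of 32516 regions were promoters, 43.5% were intronic and 36.6% intergenic. Below percentile 25 the promoter share was 43.2% of 6929 regions. Of these 2993 weak promoter regions 78.0% had another region of higher percentile within 1 kb, against 33.4% of the 3936 regions outside promoters in the same band.

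Promoter regions were centred just upstream of the start. For the 20211 regions within 1 kb of a protein-coding start the median position was 21 bp upstream (-21 bp; quartiles -90 and 113 bp), and 59.8% lay upstream. Those at percentile 99 and over were tighter, with a median of -35 bp, quartiles of -66 and -4 bp, and 86.7% within 100 bp of the start. Those under percentile 50 lay downstream, at a median of 155 bp, with 20.2% within 100 bp. Protein-coding starts were the nearest start for 83.9% of promoter regions and starts of long non-coding RNAs for 11.0%, with median percentiles of 78.6 and 67.9.

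**Figure D2:**
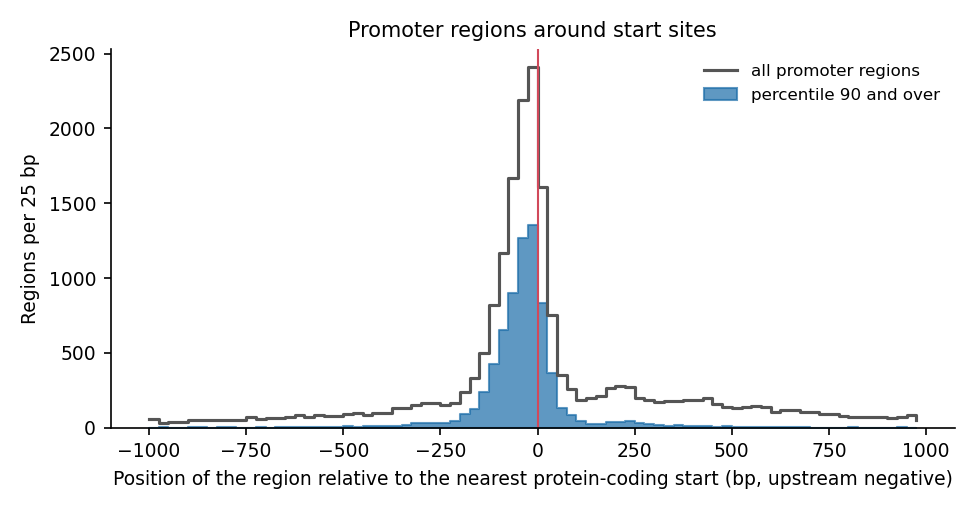
Number of promoter regions per 25 bp (vertical axis) by distance in bp from the nearest protein-coding start (horizontal axis, upstream negative, red line at the start); the grey outline is all 20211 regions and the blue area those at percentile 90 and over. Both peak just upstream of the start, and the outline has a downstream shoulder that is far lower among the strong regions.

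Width rose with fold, from a median of 157 bp below percentile 25 to 515 bp at 99 and over, and differed by position. The median region was 334 bp wide in promoters and 227 bp outside them, with 10th to 90th percentiles of 149 to 778 bp and 136 to 416 bp. Regions of 800 to 1500 bp numbered 2437, of which 90.7% were promoters. The 10 broadest spanned 1617 to 2158 bp, and 8 of them were promoters. The broadest was in an annotated exon of Crlf2, a cytokine receptor gene, on chr5:109556698-109558855, 1050 bp from a start and thus just outside the promoter class. It was followed by the promoters of Kat6b, a histone acetyltransferase, with 1824 bp, Sgpl1, the enzyme that breaks down sphingosine 1-phosphate, with 1780 bp, Csf2ra with 1700 bp and Pigp with 1682 bp. A region of 1680 bp lay in an intron of the imprinted gene Peg3, and the promoters of Tmem229a, Gt(ROSA)26Sor, 4930509E16Rik (beside Rfx7) and Gsk3b completed the set. Their mean percentiles ran from 38.0 at Peg3 to 84.7 at Sgpl1.

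Among 21938 protein-coding genes, 14000 or 63.8% had a region in 3 of 3 libraries within 1 kb of a start, and the strongest of these had a median percentile of 92.3. A further 4.26% had start regions that were each found in at most 2 libraries, although the single lists can hold start peaks at such a gene in all 3 libraries. The remaining 31.9% had no start region from any library. Of 9793 genes of long non-coding RNAs 3033, or 31.0%, had a start region. A limit applies to genes that RefSeq places both on a chromosome and on a patch scaffold of GRCm38.p6, where a corrected copy of the sequence exists. Of 285 such protein-coding genes, 16 or 5.61% had a start region and 269 had no start peak in any vehicle library, against 66.6% with a start region among 20375 genes on a chromosome alone. Auts2 and Rims1, both long neuronal genes, are in this set and had 0 peaks in their gene bodies in each of the 3 libraries. Whether the patch copies account for the missing peaks was not tested, and such genes are not described as closed. None of the genes named in the lists that follow is on a patch scaffold, apart from 9 members of the large families.

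The neuronal label was checked against marker genes, with the 63.8% of all protein-coding genes as the background. Fewer cells of a type and less accessible DNA per cell cannot be told apart in these bulk libraries. All 12 pan-neuronal markers had a start region, with a median percentile of 83.2, below the median of 92.3 over all protein-coding genes with a start region. The medians of the excitatory, GABAergic, astrocyte, progenitor, synaptic, activity and housekeeping lists given next were below 92.3 as well. Syn1, a synaptic vesicle protein, was highest at 98.3, 98.4 and 98.8 in replicates 1 to 3, followed by the calcium sensor Syt1 at 97.2, 98.0 and 96.9 and the microtubule protein Map2 at 95.6, 97.1 and 96.3. Rbfox3, which encodes the neuronal nuclear antigen NeuN, was lowest at 59.1, 63.2 and 46.8. Its gene body held 36 regions (8.53 per 100 kb), that of Map2 25 (9.35) and that of Syt1 20 (3.90). The median for protein-coding genes of 100 kb or more was 4.34 per 100 kb, so Syt1 lay below it.

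Of 11 markers of excitatory cortical neurons, 10 had a start region, at a median percentile of 64.4 and with none at 90 or over. Neurod6 and Neurod2, transcription factors of cortical projection neurons, were highest with means of 86.1 and 83.0. Slc17a7, the vesicular glutamate transporter of cortical neurons, was lowest at 21.6, 25.7 and 4.8, and its strongest nearby region was intergenic, 18459 bp past the gene's start, at percentiles of 96.5, 93.5 and 94.6. Fezf2, a factor of deep-layer neurons, had no start region in 3 of 3 libraries, although each library's own list held a start peak at all 11 markers.

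Of 12 GABAergic markers, 11 had a start region, with a median of 57.6. Dlx5, an interneuron homeobox gene, was highest at a mean of 86.5. Gad1 and Gad2, the enzymes that make GABA, stood at 50.9 and 52.0, and Vip, a neuropeptide gene, had no start peak in any library. Dlx1 and Dlx2 are neighbours, and the strongest region within 50 kb of both was the same intergenic one on chr2:71581064-71581458, with folds of 14.9, 15.4 and 13.3. Both neuronal classes were thus accessible at most of their markers, at lower percentiles than the pan-neuronal genes.

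Markers of other cells of the cortex ranged from all to few with a start region. All 9 astrocyte markers had a start region, with a median of 77.5: Aldh1l1 and Glul were highest at 87.1 and 86.0, and Aqp4 and Gfap, the water channel and the filament protein that define mature astrocytes, were lowest at 41.8 and 50.7. All 9 neural progenitor markers had one too, with a median of 81.6, from the mitotic genes Top2a and Mki67 at 98.3 and 98.0 through Sox2 at 86.2 and Vim at 83.9 to Eomes at 72.1, Nes at 66.2 and the Notch effectors Hes1 and Hes5 at 50.2 and 38.8. Of 9 oligodendrocyte lineage markers 4 had a start region in 3 of 3 libraries, although the single lists held start peaks at 6, 5 and 7 of them. No start region was shared by more than 2 libraries at Sox10 and Cspg4 or found in more than 1 at Mag. The 4 with a region in 3 of 3 were Olig1 at 89.0, Pdgfra at 81.8, Olig2 at 72.3 and Mbp at 69.5. The myelin gene Mog had no start peak in any library. Of 9 microglia markers 1 had a start region, while Cx3cr1, Aif1, Itgam and Spi1 had no start peak in any library. The vascular list had 3 of 9 (Kdr, Pdgfrb and Flt1 at 78.1, 69.1 and 47.3) and the meningeal fibroblast list 1 of 5 (Col1a1 at 78.4). The study's methods describe glia as rare under its standard culture conditions. The part of non-neuronal cells in the open astrocyte and progenitor starts was not tested.

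Genes of synapses and of activity were accessible throughout. All 16 synaptic genes had a start region, with a median of 87.4 and 5 at 90 or over, among them the syntaxin Stx1a at 94.9, the scaffold Shank3 at 91.3 and synaptophysin (Syp) at 90.5. Homer2 was the lowest at 68.2. Shank2, another scaffold of the postsynaptic density, had 37 regions in its gene body, or 8.76 per 100 kb. All 10 activity-regulated genes had a start region, with a median of 72.5 and none at 90 or over. Homer1, Nr4a1 and Bdnf were highest at 87.6, 87.4 and 84.1, and Junb was lowest at 41.3, with Fos at 63.1 and Arc at 76.0. The 10 housekeeping genes, all with a start region, had a median of 80.1, with Hprt the highest at 99.6.

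The strongest region outside promoters within 50 kb exceeded the gene's own start for 9 of 10 activity-regulated genes. This was not particular to them, since it held for 10 of 11 GABAergic, 7 of 9 astrocyte, 8 of 12 pan-neuronal and 5 of 10 housekeeping genes with a start region, and the best of several regions is compared with a single start. Beside Fos, a transcription factor subunit induced within minutes of firing, it was intergenic, 1057 bp wide and upstream, at -18494 bp from the gene's start, at percentiles of 91.6, 95.3 and 92.4. Beside Npas4, an activity-dependent factor of neurons, it was upstream, at -11615 bp, with 96.4, 96.3 and 95.7, and beside the nuclear receptor Nr4a1 at -7870 bp, with 95.1, 94.7 and 94.3. The start regions of these genes had means of 63.1, 60.2 and 87.4. These are the 3 sequences printed with a CRE above. Of the 10 regions of this kind for the activity list 3 held that motif, against 0.657% of all 72152 windows outside promoters, 0.758% of those at percentiles 90 to 99 and 3.14% of those at 99 and over. Among the regions picked in the same way for the other lists, 1 of 11 for the pan-neuronal list, 1 of 9 for the oligodendrocyte list and 1 of 9 for the microglia list held it, and 0 for each of the remaining lists. The comparison was made after the values were seen and without a test. Fosb had its strongest neighbour upstream, at -10042 bp, at percentiles of 98.0, 97.7 and 98.9 and without a CRE.

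Genes related to the agents of the other groups were looked up after the values had been seen. Lrrk2, the kinase that MLi-2 inhibits, had start percentiles of 97.9, 99.2 and 97.6. Rab5a and Rab5b, the early endosome GTPases that the oligonucleotides target, stood at means of 94.0 and 94.4, and Rab5c, which is not one of their targets, at 98.6. These values are near or above the median of 92.3 over all protein-coding genes with a start region, so a start above percentile 90 is common.

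**Figure D3:**
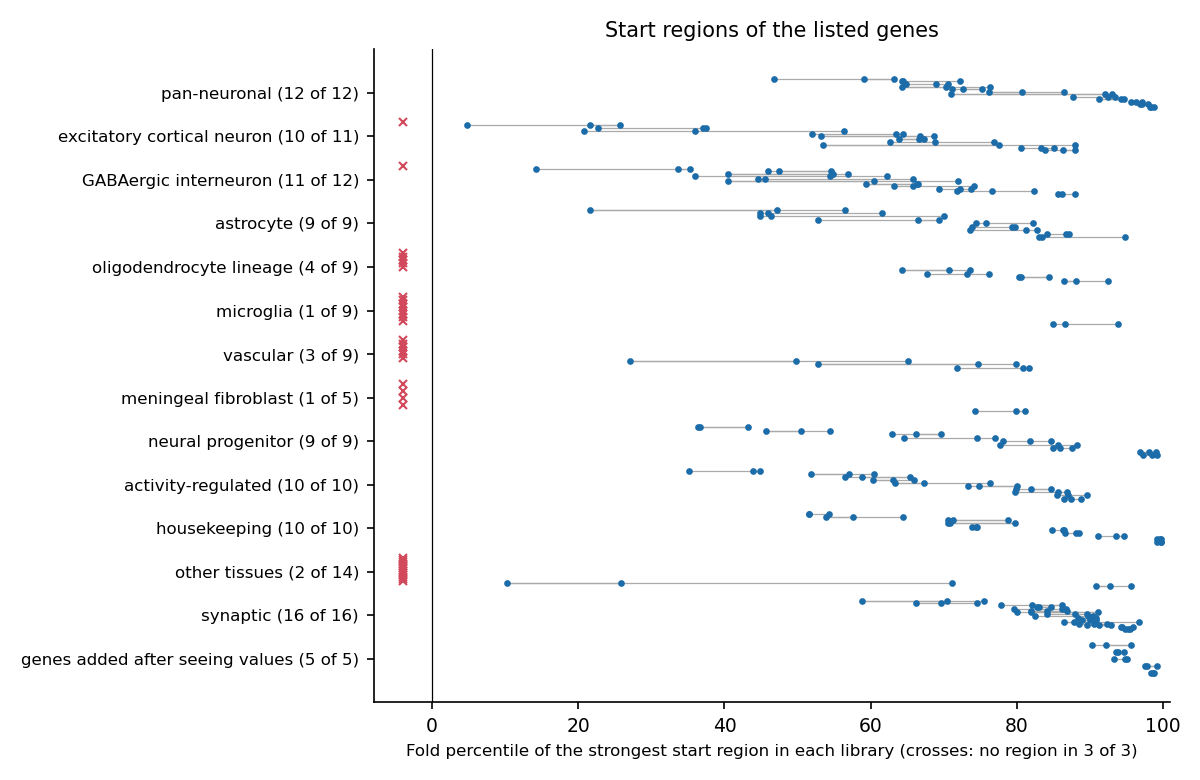
Fold percentile (horizontal axis) of the strongest region at the start of each listed gene, as 3 blue points joined by a line for the 3 libraries, with 1 row of genes per list and the number of genes with a start region of all genes in brackets; red crosses are genes without a region in 3 of 3 libraries. Median percentiles were 87.4 for synaptic, 83.2 for pan-neuronal, 81.6 for progenitor and 77.5 for astrocyte genes, and 64.4 for excitatory and 57.6 for GABAergic genes. Most microglia, vascular and other-tissue genes are crosses.

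Genes of other tissues and some large families seldom had a start region, while other families often did. Of 14 genes specific to other organs 2 had a start region, the podocyte gene Nphs1 at 93.0 and the heart troponin Tnni3 at 35.8, whose library values of 25.9, 10.3 and 71.1 lay far apart. Olfactory receptors had 23 of 1135 (2.03%), vomeronasal receptors 3 of 329 (0.912%), beta-defensins 1 of 42, keratins 12 of 113 and Hox genes, which pattern the trunk and hindbrain, 2 of 39. Against the 63.8% of all protein-coding genes, ribosomal protein genes had a start region in 86 of 98 (87.8%) and Zfp zinc finger genes in 342 of 394 (86.8%), with median percentiles of 95.9 and 95.4. Channel and receptor families of neurons were in between or above: 71 of 94 potassium channel genes, 23 of 24 ionotropic and metabotropic glutamate receptor genes and 14 of 19 GABA-A receptor subunits. Of the clustered protocadherins, which give each neuron its own surface code, 10 of 57 had a start region in 3 of 3 libraries.

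The largest numbers of regions in a gene body were in very long gene models. A protein-coding gene of 100 kb or more had a median of 8 regions in its body, or 4.34 per 100 kb, against 3.68 per 100 kb over the genome. The 3 largest counts belonged to gene models that run over other genes: Gm20388 with 429 regions over 4435 kb and 71 other protein-coding genes, Fgfr2 with 221 over 2961 kb and 29 genes, and Gm37240 with 82 over 1391 kb and 6 genes. After them came Dab1, an adaptor of Reelin signalling, with 75 regions, Asic2, an acid-sensing channel, with 73, and Dlg2, a scaffold of the postsynaptic density, with 68. The splicing factor gene Rbfox1 and Gse1 had 66 each, Camta1, a calmodulin-binding transcription activator, had 65 and the adhesion molecule gene Lsamp had 64. Their density ran from 2.91 per 100 kb in Lsamp to 6.88 in Camta1, except that Gse1 held its 66 regions in 353 kb, or 18.7 per 100 kb. Replicates 1, 2 and 3 had 149, 104 and 121 peaks in Dab1 and 101, 84 and 91 in Gse1, so the order of neighbouring genes is within the difference between lists.

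By density the leading genes of 20 kb or more were short. Cntnap1, a paranodal adhesion protein of axons, had 9 regions in 20.2 kb, or 44.6 per 100 kb, against a median of 4.21 for such genes and a 99th percentile of 20.5. Pcdhgc3, Pcdhgc4 and Pcdhgc5 followed with 36.6, 33.6 and 31.3 per 100 kb, and since these protocadherin models overlap on chromosome 18 they share regions. Kbtbd11 had 35.9, the Wnt cofactor gene Bcl9l 34.4, Cxxc5 34.1, 1700008O03Rik 31.0, Tsc22d4 30.8 and Hid1, which acts in dense-core vesicle formation, 29.9. The median percentile of the regions in these 10 genes ran from 29.8 in Cntnap1 to 75.2 in 1700008O03Rik, and 0 of them reached percentile 90.

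**Figure D4:**
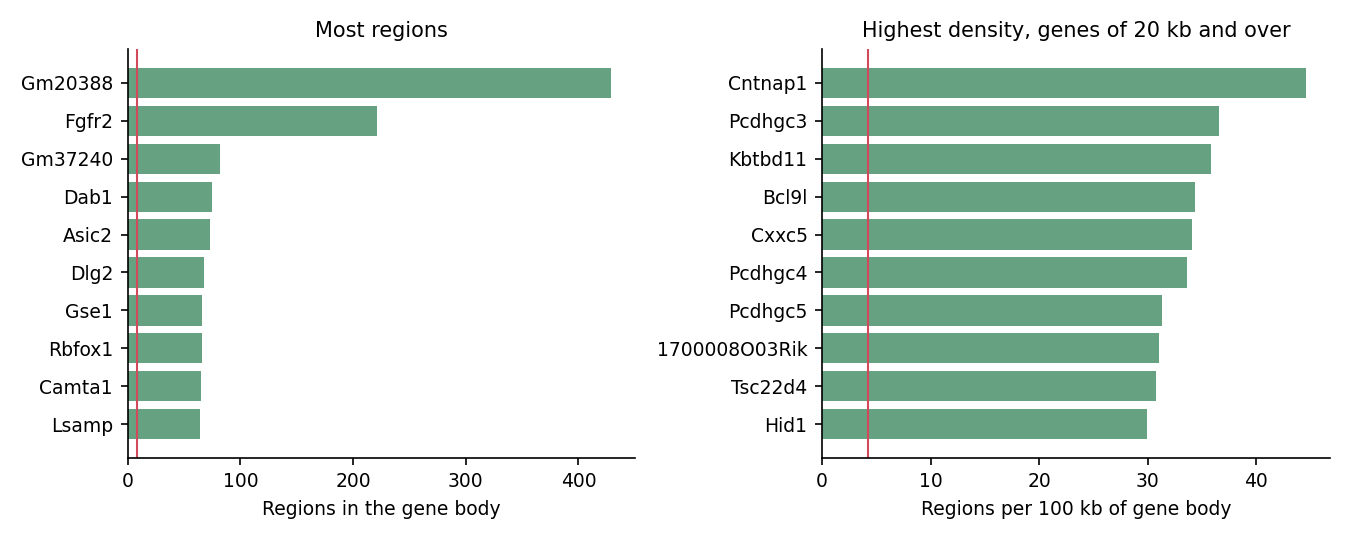
Left, the 10 protein-coding genes with the most regions in the gene body (horizontal axis, regions), in which the first 3 are models spanning other genes; the red line is the median of 8 for genes of 100 kb and over. Right, the 10 genes of 20 kb and over with the most regions per 100 kb, from 44.6 in Cntnap1 to 29.9 in Hid1; the red line is the median of 4.21.

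Windows of 100 kb gave a view free of gene models. Of 27268 windows 26.6% held no region, the median of the others was 4, and 38 held 20 or more. The densest, with 30 regions, was chr11:69000001-69100000, which holds Vamp2, a vesicle fusion protein, and the clock gene Per1 among 7 genes. The next, with 29 regions, was chr12:86800001-86900000 around Irf2bpl, where 1 region was a promoter, the rest lay outside promoters and the median percentile was 24.5. The nuclear receptor genes Thra and Nr1d1 shared a window of 27 regions on chromosome 11. The neighbouring windows chr13:23500001-23600000 and chr13:23400001-23500000, in and beside a histone gene cluster, held 27 and 26, with median percentiles of 77.9 and 68.2. The others of the 10 held 24 to 26 regions, among them those around Cxxc5, Dctn1, Fosb and Rhcg, and 2 windows on chromosome 8, around Nfix and Junb, tied with the last at 24. At the other end, chromosome X had 10.8 regions per Mb against 39.9 on the autosomes, which ran from 32.3 to 55.4, and chromosome Y had 18 regions in all.

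After regions with near-identical copies in the assembly were set aside, the list of strongest promoters was led by a region at the start of Gm49359, inside the model of the zinc finger gene Zfp935, with folds of 22.6, 19.2 and 21.1 in replicates 1 to 3. Pnpt1, a mitochondrial RNA-processing enzyme, had 20.7, 20.9 and 19.7, and Pik3c3, the lipid kinase that marks endosomes and autophagosomes, 19.7, 21.8 and 20.2. Dync1i2, a subunit of the dynein motor, had 20.5, 19.3 and 18.7, and Scfd1, which acts in transport between endoplasmic reticulum and Golgi, 20.5, 19.0 and 18.6. These values overlap between neighbours, so the order within the set is not resolved. The mitotic checkpoint kinase Bub1, Zfp960, the mitotic helicase Ercc6l, Tmem68, Zscan22, Ccdc150, the pentose phosphate enzyme Rpe, the Elongator subunit Elp4, the DNA helicase Blm and the mitochondrial import subunit Timm17a followed, with mean folds from 19.1 at Ccdc150 to 18.2 at Timm17a. All 15 lay within 135 bp of a start and were 288 to 613 bp wide.

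Outside promoters the strongest region lay 25294 bp downstream of the nearest start, that of 1810024B03Rik on chromosome 2, with folds of 19.6, 19.2 and 18.5 and ranks of 42, 23 and 33 in the 3 lists. It is the first sequence of the second set above. The next ones lay inside genes: an intron of Nalcn, the sodium leak channel that sets resting potential, with 17.9, 18.0 and 17.2, then introns of the scaffold gene Magi1 with 17.7, 17.2 and 17.1, of the presynaptic adhesion gene Nrxn3 with 17.5, 17.6 and 16.4, of the neuronal membrane glycoprotein gene Gpm6a with 18.1, 16.6 and 16.8, and of Nol4 with 18.1, 16.4 and 17.3. The exon region in the splicing factor gene Sf3b5 had 17.7, 17.8 and 15.9. A narrow region of 113 bp on chr1:122357160-122357272, 105035 bp from any gene, was the one member beyond 50 kb. The rest lay near Akap11, Gtf2e1 and Gm18604 and in introns of Zfp286, Asph, Eaf2 and Trim37. The window near Gtf2e1 repeats a short unit with small differences, which the search for near-identical copies did not set aside. Eaf2 varied most, with folds of 21.0, 15.4 and 16.4 and ranks of 15, 605 and 206, so its folds were the least even of the 15.

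The regions set aside as repeated sequence included the very highest folds. The first in all 3 lists, with folds of 37.8, 37.2 and 37.1, was chr1:24613040-24613203 at the pseudogene Gm28438, whose 201-bp window matched the mitochondrial genome over 201 bp at 99.5% identity. Behind it came an intergenic site on chromosome 6 with 3 near-identical places in the assembly and mean fold of 30.7, an intron region of Il31ra with 3 places and 30.2, and an intergenic region on chromosome 3 with 13 places and 27.6. Among the others were 3 promoter regions on chromosome 8 with 5 places each, Gm42418, Gm23935 and an exon of Lars2. Of the 60 regions with the highest mean percentile 11 were set aside. The folds of these regions were not read as accessibility of the locus.

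Base composition and short motifs were measured in the 201-bp windows. Promoter windows had a median of 62.7% GC, regions outside promoters 48.8%, and windows 2 kb from the latter 44.8%. Of promoter windows at percentile 90 and over 81.3% were CpG-rich (at least 50% GC and a CpG ratio, observed over expected, of 0.6 or more), as were 57.7% of all promoter windows. Outside promoters the share was 3.42%, with 6.05% at percentiles 90 to 99 and 20.1% at 99 and over. Motifs were searched on both strands as exact letters, where N is any base, and matches of different motifs may overlap; a match describes the letters and is not evidence of binding. The windows compared differ in GC content, whose part in the motif shares was not tested.

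Outside promoters the CTCF motif, a longer pattern given here by name, was in 4.79% of 72152 windows against 0.0982% of 140511 windows 2 kb away. Regions with it had higher folds, with medians 10.0 ± 2.03 percentile points (SD, n = 3) above regions without it, and were narrower, 194 bp against 230 bp. Its share rose from 2.86% between percentiles 25 and 50 to 8.52% between 90 and 99 and was 6.29% of the 159 windows at 99 and over. The RFX motif GTTGCCA was in 6.41% against 2.02%, MEF2, named for the neuronal activity-dependent factor family, in 1.27% against 0.354%, and the AP-1 motif TGANTCA in 11.6% against 6.02%. The E-boxes CAGATG, bound by NeuroD-type factors, and CAGCTG were in 25.2% against 15.7% and 19.6% against 8.99%, and the homeobox core TAATTA in 8.29% against 5.79%. For AP-1, MEF2 and the homeobox core the motif did not go with higher fold: regions with AP-1 differed from those without by -2.04 ± 2.03 points, with MEF2 by -1.53 ± 0.841 and with TAATTA by -1.55 ± 0.067 (SD, n = 3). SRF, at 1.00% against 1.06%, and YY1 (AAGATGG), at 3.65% against 4.95%, were not more frequent in the regions.

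Promoters had another set. The GC box GGGCGG was in 47.1% of promoter windows against 37.4% of 54320 windows at all annotated protein-coding starts. At percentile 90 and over GGGCGG reached 64.3%, the ETS motif CCGGAAG 18.9% against 8.56% at all starts, the CCAAT box AGCCAAT 11.9% against 5.21%, NRF1 11.1% against 4.32% and the CRE TGACGTC 5.94% against 2.74%. CACGTG, the E-box core to which TFEB and TFE3 bind, was in 8.81% against 5.07%. In promoter regions under percentile 25 the ETS motif was in 3.01%, the CCAAT box in 2.44% and NRF1 in 1.04%, below their shares at all starts. NFI was rare, with matches in 52 or 0.0721% of windows outside promoters against 0.00996% of windows 2 kb away.

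**Figure D5:**
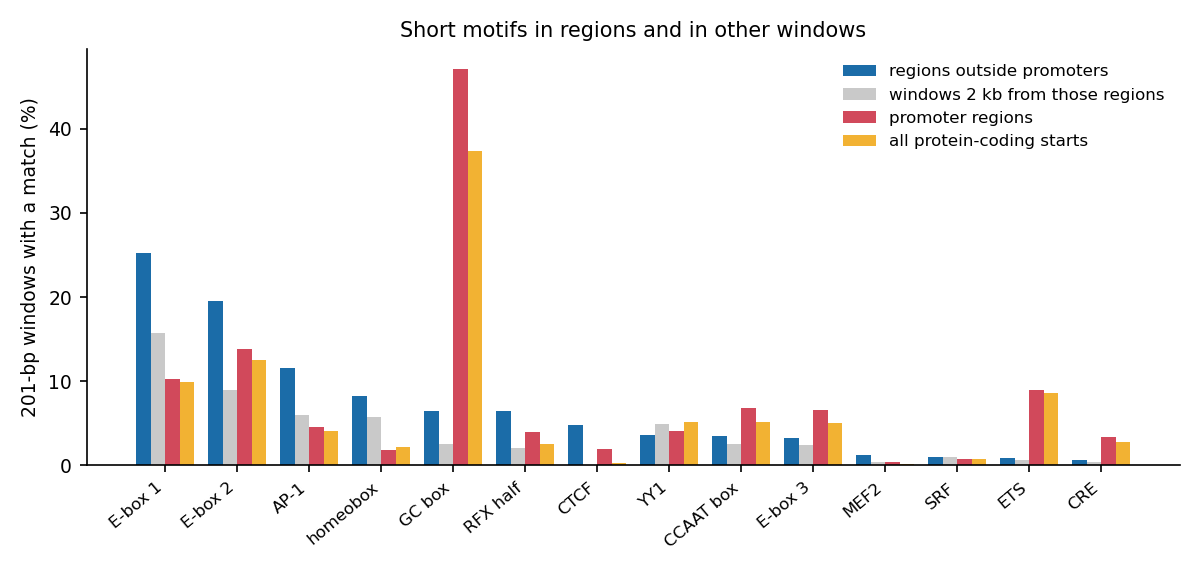
Share (%) of 201-bp windows with at least 1 match to each motif (horizontal axis; E-box 1 is CAGATG, E-box 2 CAGCTG, E-box 3 CACGTG, the RFX column GTTGCCA) in regions outside promoters (blue), windows 2 kb from them (grey), promoter regions (red) and all protein-coding starts (yellow). CTCF stands at 4.79% in regions outside promoters and 0.0982% beside them, and the GC box at 47.1% in promoter regions.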

How the data were processed

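ATAC-seq peak lists of 3 PBS libraries were used, and the other 9 libraries entered only the count of all regions. Per the study's methods and the submitters' processing notes, reads were trimmed with Trim Galore 0.6.7, aligned to GRCm38 with Bowtie2 2.5.1 and peaks were called per library with MACS2 2.2.7.1. Caller options, duplicate handling and any shift for the Tn5 cut are not given in the sources used here, and they bear on peak width and number. The deposited peak lists give a fold enrichment (a ratio over local background), −log10 p and −log10 q values and a score made from q. Read depth is unknown from the lists, so no interval was set on a fold. Folds were used as ranks within a list. Peaks of the libraries were merged at an overlap of 1 bp and the position of a region was the median of its library summits. Starts, exons and gene bodies came from GENCODE vM21, and patch placements from RefSeq on GRCm38.p6. Windows of 201 bp at the strongest regions were searched in the assembly with blastn 2.17.0, and regions with another place at 95% identity over 80% of the window, or matching the mitochondrial genome, were set aside. Named regions were the 15 highest by mean percentile in each class, and named genes the 10 highest by count and by density plus the listed markers, of which some are not reported here. Members and lists were chosen with earlier results of these data known. Scripts were tested on simulated data. The biological replicates were compared by mean ± SD, with no test, since an exact sign permutation test over 3 libraries cannot give a p below 0.25.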

Additional observations from a re-analysis of the deposited data

Results flagged for a closer look

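Among the regions called in 3 of 3 vehicle libraries, 75 lay on scaffolds outside chromosomes 1 to 19, X and Y and entered no comparison above; they are given here because this signal falls outside the main measurement. They sat on 24 scaffolds and had a median fold percentile of 32.4. Of these, 55 were on 8 unplaced contigs, with a median percentile of 13.0 and a highest of 99.9966, and 20 were on 16 other scaffolds, with a median of 79.0 and a highest of 99.9956. The peak lists held 114, 118 and 115 peaks outside the chromosomes in replicates 1, 2 and 3. No gene names were assigned to them.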

How the results depend on the processing

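The results were computed again under 11 planned settings and 2 chosen after seeing the data. Only the promoter minus outside difference has a direction, and it kept its sign in each setting for which it was computed. Shares, widths and counts have no sign that could reverse. The number of regions stayed within 1.5 times of 97519. Regions in at least 2 of 3 libraries gave 23.4% promoters, 39.6% introns, 33.7% intergenic, a median width of 203 bp, 65.7% of protein-coding genes with a start region and 12 regions per gene over 100 kb. Peaks with −log10 q of 5 or more gave 29.2%, 36.1%, 31.5%, 275 bp and 62.0% for the first 5 of these values, and a peak covering 50% of the region in each library gave 28.5%, 36.7%, 31.6%, 257 bp and 62.3%. Promoters within 500 bp gave 21.6%, 40.6% and 33.7%, a promoter minus outside difference of 17.6 percentile points and 61.7% of genes, and promoters within 2 kb gave 31.0%, 35.0%, 31.4%, 7.34 points and 66.2%. With starts of coding transcripts alone the values were 20.7%, 40.6%, 33.9% and 15.7 points. Equal numbers of top peaks gave 252 bp and 15.9 points, and the percentile of −log10 q gave 19.6 points. Leaving out 1 library at a time gave widths of 201 to 213 bp and 64.0 to 64.9% of genes. Of the settings chosen after seeing the data, leaving out regions with a stronger neighbour, which by its construction removes weak regions and more of them at promoters, gave 22.0% promoters, 253 bp and 19.6 points, and leaving out genes on a patch scaffold gave 65.0% of genes. The causes of these shifts were not tested beyond the settings' own construction. Of 330 values for named regions 36 moved by more than the spread between libraries, the largest by 2.51 percentiles. List counts and the number of regions were instead called moved only beyond a ratio of 1.5, and of 240 list counts 11 moved. Of 75 values for the 8 summary results above, 41 moved. No paired analysis was possible because only 1 group is described. Read depth is unknown, so regions found in 1 or 2 libraries cannot be called closed in the others.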
